A study of Homo sapiens with 4 samples.

Results

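The NKX homeobox genes were examined at their promoters in JMJD3c-hESCs, human embryonic stem cells that express JMJD3c, the catalytic part of the H3K27 demethylase JMJD3, once doxycycline (Dox) is added. The group was taken by gene symbol and holds 9 genes among the 20242 promoters measured. These are 5 genes of the NKX2 group (NKX2-1, NKX2-2, NKX2-3, NKX2-5 and NKX2-8), 1 of the NKX3 group (NKX3-2) and 3 of the NKX6 group (NKX6-1, NKX6-2 and NKX6-3), and all 9 had a row in every file. Chromatin immunoprecipitation sequencing (ChIP-seq) was done for H3K27me3, the trimethylated lysine of histone H3 that Polycomb complexes deposit at silent genes, and for H3K4me3, which marks promoters that are active or poised. Each mark was measured in untreated cells (−Dox) and in cells given Dox at 1 µg/ml (+Dox), with day 3 as the day of collection. All cells came from the SEES-3 line, carried the reverse Tet transactivator and a piggyBac JMJD3c transgene, and were grown in StemFit AK-03. Clones were selected with puromycin, and how many of them entered these libraries is not given in the sources used here. There was 1 library for each mark and condition, so no difference below has a replicate check, and an effect of Dox itself cannot be told apart from one of JMJD3c.

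NKX proteins are transcription factors that bind DNA through a homeodomain and that relate to the NK genes of the fly. They are switched on in restricted territories of the embryo and stay silent elsewhere. In pluripotent cells genes of this kind are known as Polycomb targets, and many of them carry H3K27me3 and H3K4me3 together, a state called bivalent. NKX2-1 acts in thyroid, lung and ventral forebrain, NKX2-2 in the ventral neural tube and the endocrine pancreas, NKX2-3 in the visceral mesoderm of gut and spleen, and NKX2-5 in the heart. NKX3-2 acts in the axial skeleton, NKX6-1 in beta cells and motor neuron progenitors, NKX6-2 in the neural tube and in myelinating glia, and NKX6-3 in the stomach epithelium.

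The bases that lie just before 5 of the start sites are given first, because both marks were summed around starts of the same transcripts and because vertebrate Polycomb domains form on CpG-rich DNA. NKX2-3 (chr10:101292499-101292698, plus strand) had the highest H3K27me3 ratio among the strongly marked genes, NKX2-1 (chr14:36990355-36990554, minus strand) shares a locus with NKX2-8, NKX3-2 (chr4:13546133-13546332, minus strand) and NKX6-1 (chr4:85420446-85420645, minus strand) had lower H3K4me3 after Dox, and NKX6-2 (chr10:134599652-134599851, minus strand) is the most CpG-rich of the 9 while carrying little of either mark. Each run holds 200 bases of GRCh37, the assembly behind hg19, read 5′ to 3′ on the strand of the gene up to the base before the start, and capitals mark CpG dinucleotides.
NKX2-3: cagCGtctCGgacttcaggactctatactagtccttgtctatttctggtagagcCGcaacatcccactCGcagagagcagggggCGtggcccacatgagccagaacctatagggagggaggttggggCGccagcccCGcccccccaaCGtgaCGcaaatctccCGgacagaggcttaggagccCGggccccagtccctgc
NKX2-1: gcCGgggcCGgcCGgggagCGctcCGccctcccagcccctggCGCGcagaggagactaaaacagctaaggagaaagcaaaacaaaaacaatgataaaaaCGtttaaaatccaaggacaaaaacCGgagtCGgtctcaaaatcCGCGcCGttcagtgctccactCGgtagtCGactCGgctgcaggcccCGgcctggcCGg
NKX3-2: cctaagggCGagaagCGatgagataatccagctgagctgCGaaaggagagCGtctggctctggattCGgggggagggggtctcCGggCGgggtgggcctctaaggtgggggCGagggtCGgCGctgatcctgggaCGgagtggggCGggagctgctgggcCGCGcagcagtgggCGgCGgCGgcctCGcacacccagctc
NKX6-1: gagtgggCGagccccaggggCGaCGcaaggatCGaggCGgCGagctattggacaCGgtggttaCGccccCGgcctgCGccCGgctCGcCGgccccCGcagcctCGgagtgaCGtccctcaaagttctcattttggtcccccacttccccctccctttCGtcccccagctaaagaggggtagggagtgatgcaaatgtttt
NKX6-2: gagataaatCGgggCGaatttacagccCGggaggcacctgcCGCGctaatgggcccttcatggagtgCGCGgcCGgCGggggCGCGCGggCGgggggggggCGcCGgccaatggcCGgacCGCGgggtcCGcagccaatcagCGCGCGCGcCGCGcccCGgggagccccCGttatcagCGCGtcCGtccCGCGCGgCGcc

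These runs hold 11 CpG in NKX2-3, 18 in NKX2-1, 18 in NKX3-2, 17 in NKX6-1 and 34 in NKX6-2, beside a median of 14 over all promoters with a position. NKX2-2 held 9, NKX2-5 7, NKX2-8 12 and NKX6-3 15 in the same 200 bases. Over the whole window, which reaches 3 kb in either direction from the start, the 9 genes had between 190 CpG (NKX6-3) and 692 (NKX6-2), and the median of the 9 was 357 where that of all promoters was 156. Windows of promoters with an H3K27me3 signal of at least 100 in −Dox cells held a median of 274. A pair of letter patterns was searched on both strands from 250 bases before to 50 bases after each start. TNAAGTG, a core that NKX2 proteins bind, was found at NKX2-2 and at none of the other 8 genes, and 8.78% of 18244 promoters held it. TAATTA, which reads the same on both strands and which many homeodomains bind, was found at none of the 9 and at 3.48% of all.

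**Figure D1:**
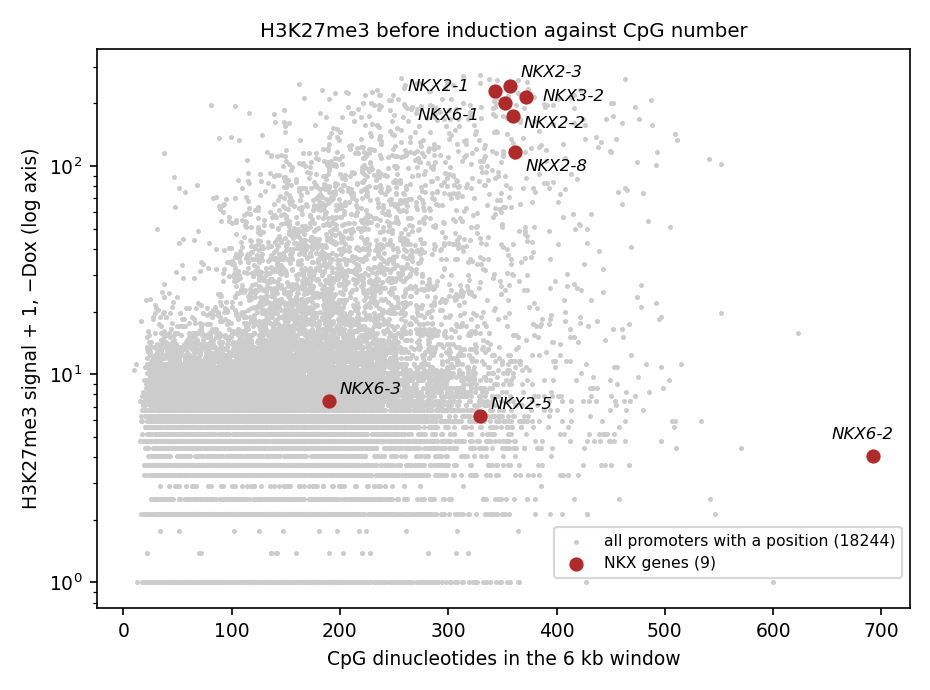
H3K27me3 signal in −Dox cells plus 1 (log axis) against the number of CpG dinucleotides in the window of 3 kb in either direction from the start. Grey points are the 18244 promoters with a position and red points the 9 NKX genes. Of the red points 6 lie near the top of the plot with 343 to 372 CpG, while NKX2-5, NKX6-2 and NKX6-3 lie low, with 329, 692 and 190 CpG.

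Signal here means read coverage, scaled by 1 factor for each file, and is the sum over the 3 kb before and the 3 kb after the start. No input library was used here, so background is included. The median promoter had an H3K27me3 signal of 6.09 in −Dox and 5.97 in +Dox cells, each worth about 5 reads. The H3K4me3 medians were 41.3 and 38.8, or about 43 and 31 reads. The libraries held between 170932 and 945917 approximate reads in promoter windows. Stem cell identity was checked on a list of 10 pluripotency genes, 9 of which had H3K4me3 above 20 in −Dox cells, and none had H3K27me3 above 12.9. Over all promoters 63.7% exceeded 20 for H3K4me3 and 11% for H3K27me3, so most promoters would pass and the check is a weak one. FOXA2 and SOX17 of endoderm, T of mesoderm and PAX6 of neuroectoderm were all bivalent in −Dox cells.

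Before induction the NKX genes fell into a strongly H3K27me3-marked set and a set near background. Of the 9 genes 6 exceeded the signal of 20 that the study's methods use as threshold for a marked promoter, where 11% of all promoters did. The same 6 exceeded 100, which 1.88% of all promoters reached. The order of the −Dox H3K27me3 signal was NKX2-3 with 243, NKX2-1 with 229.7, NKX3-2 with 213, NKX6-1 with 200.0, NKX2-2 with 173 and NKX2-8 with 116. Only 16 promoters of the whole table had a higher signal than NKX2-3, and 25 had a higher one than NKX2-1. The remaining genes were NKX6-3 with 6.47, NKX2-5 with 5.32 and NKX6-2 with 3.04, which is about 5, 4 and 2 reads. No gene lay between 6.47 and 116.

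H3K4me3 was modest at the same promoters. In −Dox cells it was 82.6 at NKX3-2, 49.3 at NKX6-1, 27.6 at NKX2-3, 25.1 at NKX2-8 and 21.4 at NKX2-2, so that these 5 genes were bivalent, as were 9.42% of all promoters. NKX2-1 had 15.4, below the threshold of 20, and was classed as H3K27me3-only. NKX6-3 had 17.7, NKX6-2 16.5 and NKX2-5 7.69, and with little H3K27me3 these were unmarked. Of the 9 only NKX3-2 and NKX6-1 lay above the median of all promoters for H3K4me3.

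**Figure D2:**
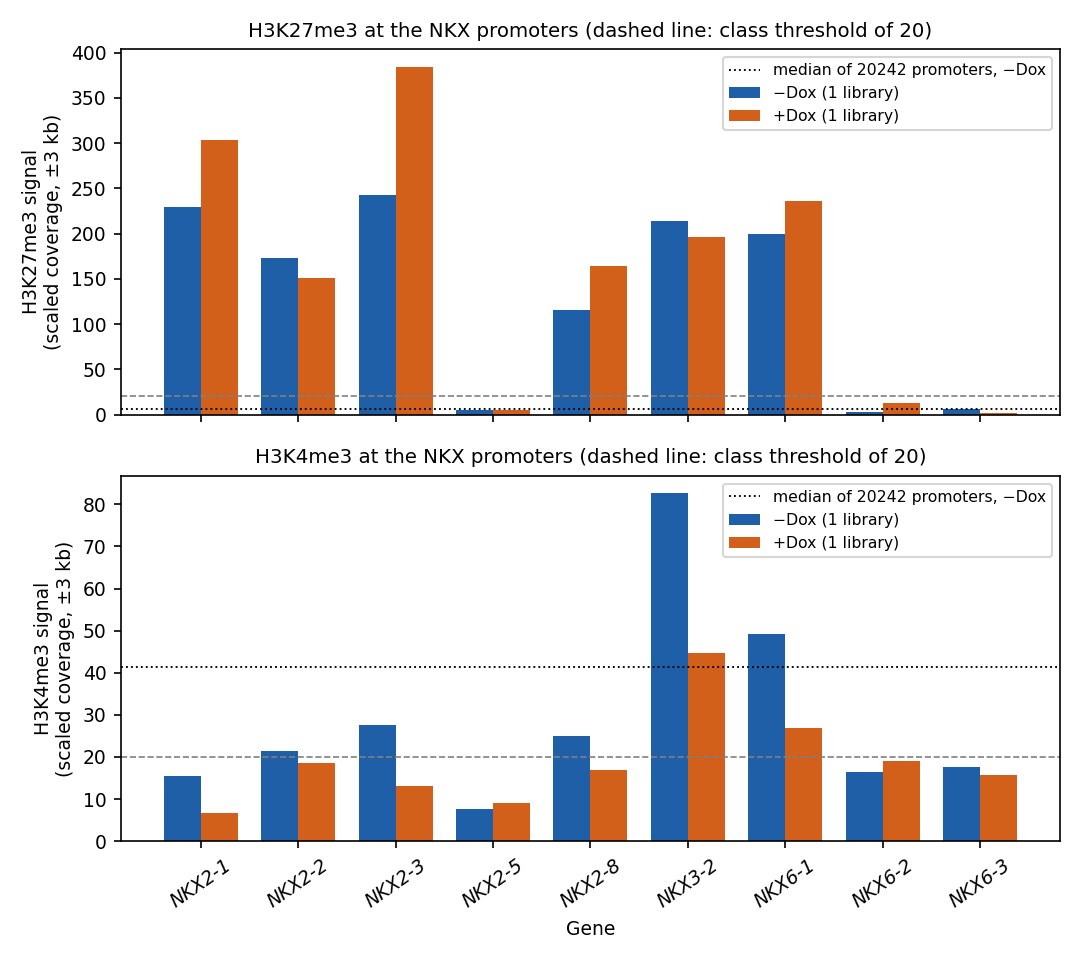
Signal of H3K27me3 (top) and H3K4me3 (bottom) at the 9 NKX promoters, in −Dox (blue) and +Dox (orange) cells, 1 library for each bar and therefore without error bars. The dashed line is the class threshold of 20 and the dotted line the −Dox median over all 20242 promoters. NKX2-5, NKX6-2 and NKX6-3 lie below 20 in all 4 libraries.

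Whether the deposited H3K27me3 signal at these genes was lower after induction of JMJD3c was examined next with the plain +Dox/−Dox ratio. None of the 6 marked genes had a ratio below 0.66, and their lowest was 0.873 at NKX2-2. The 5 bivalent NKX genes are among them, while 61.4% of the 1907 bivalent promoters lay below 0.66. Those 1907 promoters were mostly marked more weakly, with a median H3K27me3 signal of 43.0 in −Dox cells. The lowest of the 5 NKX genes, NKX2-8, had 116. A ratio below 0.66 was found at 1 of the 9 genes, NKX6-3, which also lay below 0.5. The shares over all promoters with a ratio were 33.6% below 0.66 and 21.5% below 0.5, which for most of them rests on few reads. For the 9 genes the median log2 H3K27me3 ratio was 0.24, with a range of −0.20 to 0.66 between the second lowest and the second highest gene. Over all promoters the median was −0.15 and over bivalent promoters −0.81.

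Strongly marked promoters are the closer comparison, since 380 promoters had an H3K27me3 signal of at least 100 before induction. Their median log2 H3K27me3 ratio was −0.15, and the share of them with a ratio below 0.66 was not counted. The ratio exceeded 1 at 39.5% of them and at 4 of the 6 marked NKX genes. Its counting interval lay wholly above 1 at 13.4% of them and at 3 of the 6 NKX genes. This interval comes from the approximate reads of 2 libraries and covers counting error only. With 6 genes these shares are coarse, and no test was made of the difference between these shares.

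In the NKX2 group, H3K27me3 at NKX2-3 was 243 without and 384 with Dox, about 192 and 308 reads. The ratio was 1.58 (95% counting interval 1.31 to 1.90), and no other promoter of the table had as much H3K27me3 in +Dox cells. NKX2-1 had 229.7 and 303.9, a ratio of 1.32 (1.09 to 1.61). NKX2-8 had 116 and 164, a ratio of 1.41 (1.08 to 1.87). These are the 3 strongly marked genes whose interval lay above 1, and each kept an interval above 1 when the H3K27me3 libraries were scaled to the same total, or so that promoters of low signal had a median ratio of 1. NKX2-2 had 173 and 151, a ratio of 0.873 (0.675 to 1.12), which became 1.03 with the same total, so it has no direction. NKX2-5 had 5.32 and 5.59, about 4 reads in each library, and the interval of its ratio, 0.183 to 5.29, shows that a change was not detectable at this depth.

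NKX3-2 had an H3K27me3 signal of 213 without and 196 with Dox. The ratio was 0.921 (0.735 to 1.15), and it was 1.08 with the same total, so neither direction can be given. In the NKX6 group, NKX6-1 had 200.0 and 236, a ratio of 1.18 (0.948 to 1.46), and the interval moved above 1, to 1.12 to 1.72, with the same total. NKX6-2 had 3.04 and 13.0, about 2 and 10 reads, and a ratio of 4.29 (1.05 to 46.2), which became 2.24 with a pseudocount of 5. Both values stayed under the threshold of 20. NKX6-3 had 6.47 and 2.24, about 5 and 2 reads, with a ratio of 0.346 (0.0375 to 2.41), which became 0.631 with that pseudocount. The lowest and the highest H3K27me3 ratio of the 9 genes therefore both belong to promoters with 10 reads or fewer in each library.

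Scaling to the same total raised every H3K27me3 ratio by a factor of 1.18, a log2 shift of 0.23, and moved the median of all promoters from −0.15 to 0.08. It rests on the total over promoters being unchanged. Whether the deposited values were scaled to library size alone, or also to the signal beyond transcription ends that the study's methods name for profiles, is not given in the sources used here. The smallest step between values was 0.372844 in both +Dox files, beside 0.380322 and 0.284962 in the −Dox files of H3K27me3 and H3K4me3, and whether each +Dox file was scaled by its own depth was not tested. Another factor would multiply all ratios of a mark alike and leave the order of promoters as it is. With scaling to library size a loss shared by all promoters would not appear, and a ratio above 1 does not show that the amount of H3K27me3 in the cells was larger.

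**Figure D3:**
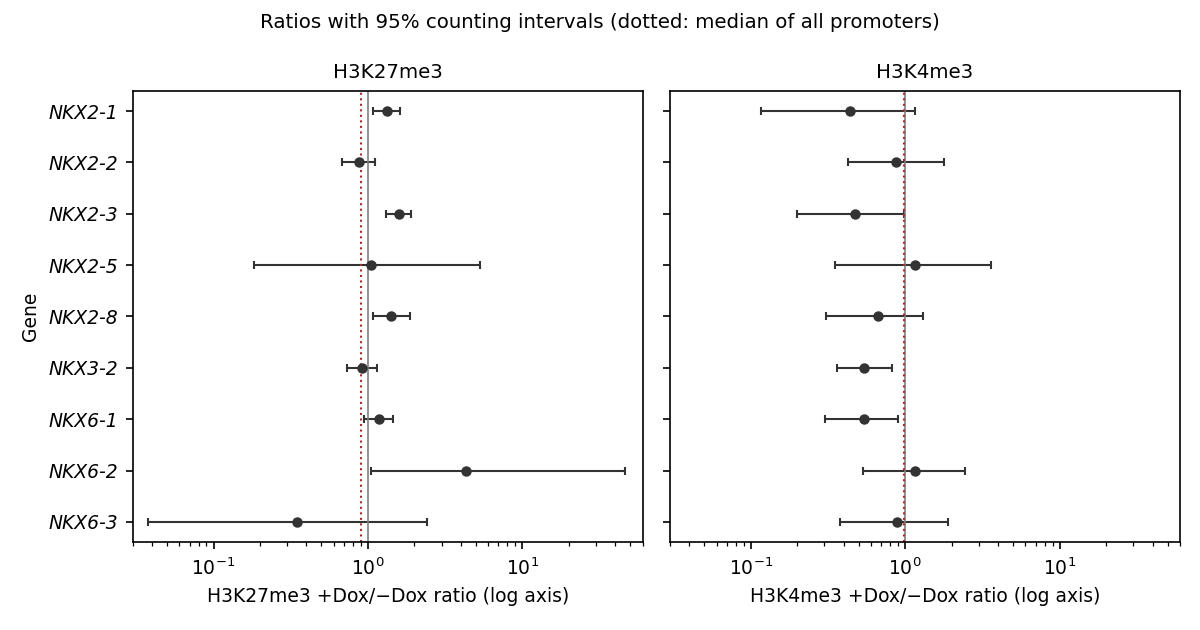
Ratio of the +Dox to the −Dox signal (log axis) for H3K27me3 (left) and H3K4me3 (right) at the 9 NKX promoters. Points are ratios, bars are 95% counting intervals of the approximate reads, the grey line is a ratio of 1 and the dotted line the median of all promoters. For H3K27me3 the intervals of NKX2-1, NKX2-3, NKX2-8 and NKX6-2 lie above 1, and for H3K4me3 those of NKX2-3, NKX3-2 and NKX6-1 lie below 1.

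H3K4me3 was lower in +Dox than in −Dox cells at all 6, under each of the scalings tried, and at 75.5% of the 380 promoters with at least 100 of H3K27me3. The H3K4me3 ratio was below 0.66 at 4 of the 6, NKX2-1, NKX2-3, NKX3-2 and NKX6-1, and at 31.3% of the 380. Over all promoters with a ratio 11.7% lay below 0.66, and scaling on promoters of low signal, which multiplied H3K4me3 ratios by 0.908 (a log2 shift of −0.14), lowered the values further. The median log2 H3K4me3 ratio was −0.58 for the 9 genes, −0.32 for the 380 and −0.03 for all promoters.

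NKX3-2 had the largest H3K4me3 signal of the 9 genes and went from 82.6 to 44.7, about 85 and 36 reads, a ratio of 0.541 (0.360 to 0.817). NKX6-1 went from 49.3 to 26.8, about 51 and 21 reads, a ratio of 0.544 (0.304 to 0.901). NKX2-3 went from 27.6 to 13.0, a ratio of 0.472 (0.200 to 0.979). The interval lay below 1 at these 3 of the 6 genes and at 15.8% of the 380 promoters, and that of NKX2-3 included 1 when the H3K4me3 libraries had the same total. NKX2-1 went from 15.4 to 6.71, about 16 and 5 reads, a ratio of 0.436 (0.116 to 1.15). NKX2-8 had 25.1 and 16.8, a ratio of 0.669 (0.305 to 1.30), and NKX2-2 had 21.4 and 18.6, a ratio of 0.872 (0.425 to 1.78). At these 3 genes the reads do not settle a direction.

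At the 3 genes with little H3K27me3 no change of H3K4me3 was detectable at this depth. H3K4me3 was 7.69 and 8.95 at NKX2-5, 16.5 and 19.0 at NKX6-2 and 17.7 and 15.7 at NKX6-3. Their ratios were 1.16 (0.349 to 3.57), 1.15 (0.530 to 2.43) and 0.886 (0.379 to 1.89), and all 3 intervals include 1. In the classes, NKX2-2, NKX2-3 and NKX2-8 were bivalent in −Dox cells and H3K27me3-only in +Dox cells, because H3K4me3 went below 20. The intervals of the H3K4me3 ratios of NKX2-2 and NKX2-8 included 1, so their crossing of the threshold lies within counting error. How many of all bivalent promoters changed class in the same way was not counted. These changes are therefore not shown to be particular to the NKX genes. NKX3-2 and NKX6-1 remained bivalent, NKX2-1 remained H3K27me3-only, and the other 3 remained unmarked.

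Across the 380 strongly marked promoters, which share the same 4 libraries, the log2 ratios of the 2 marks had a Spearman's rho of −0.474 and a Pearson's r of −0.487, given as a description. NKX2-1, NKX2-3, NKX2-8 and NKX6-1 lay in the part with more H3K27me3 and less H3K4me3, as did 33.9% of the 380, and NKX2-2 and NKX3-2 had lower values of both marks as deposited.

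**Figure D4:**
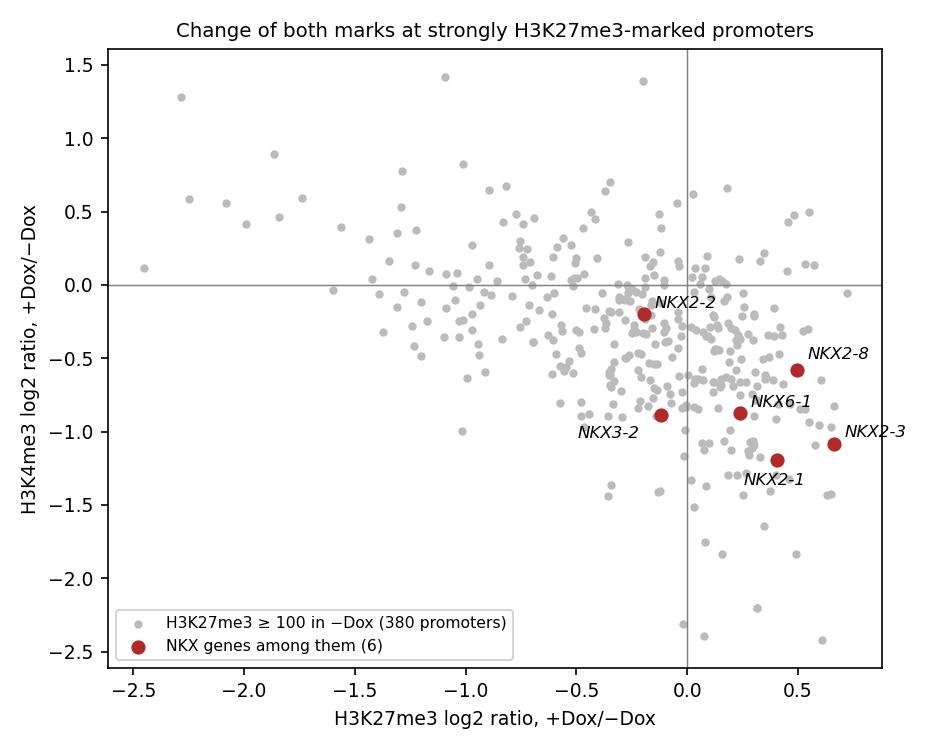
Log2 ratio of H3K4me3 against that of H3K27me3 for promoters with an H3K27me3 signal of at least 100 in −Dox cells. Grey points are single promoters and red points the 6 NKX genes among them, all of which lie below 0 for H3K4me3, while 4 lie above 0 for H3K27me3.

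Both marks were then set beside the base composition and position of the windows. Of the unmarked genes, NKX6-2 stood apart with a window GC content of 69.4%, while the other 8 genes had 57.3 to 59.5%. Promoters with a window GC content of at least 65% had a median H3K27me3 signal of 5.71 and a median H3K4me3 signal of 46.5 in −Dox cells, and the part of GC content in the low signal of NKX6-2 was not tested. NKX2-5 had 329 CpG and 58.3% GC, beside 343 CpG and 59.4% GC at NKX2-1, and 5.32 of H3K27me3 against 229.7. NKX6-3 had the fewest CpG of the 9.

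The files name transcripts and give no positions, so starts were taken from the same transcripts in GENCODE 44 on GRCh37, and the starts behind the deposited values may come from an older annotation. By these positions the start was that of the main annotated transcript for 8 genes, and that of NKX2-1 lay 917 bp upstream of it. Windows in GRCh37, centred on the start, ran from 36987354 to 36993354 on chromosome 14 for NKX2-1 (ENSG00000136352), from 37048819 to 37054819 on chromosome 14 for NKX2-8 (ENSG00000136327) and from 21491702 to 21497702 on chromosome 20 for NKX2-2 (ENSG00000125820). They ran from 101289699 to 101295699 on chromosome 10 for NKX2-3 (ENSG00000119919), from 172659209 to 172665209 on chromosome 5 for NKX2-5 (ENSG00000183072) and from 13543132 to 13549132 on chromosome 4 for NKX3-2 (ENSG00000109705). Those of the NKX6 group ran from 85417445 to 85423445 on chromosome 4 for NKX6-1 (ENSG00000163623), from 134596651 to 134602651 on chromosome 10 for NKX6-2 (ENSG00000148826) and from 41505336 to 41511336 on chromosome 8 for NKX6-3 (ENSG00000165066). Each holds the start of the first exon and the sequence upstream of it. The antisense genes NKX2-1-AS1 and NKX2-2-AS1 overlap their partners, and ChIP-seq signal does not tell the strands apart.

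NKX2-1 and NKX2-8 lie 61465 bp apart, and PAX9, a paired box gene of the pharyngeal pouches and the axial skeleton, starts 74954 bp beyond NKX2-8. PAX9 had an H3K27me3 signal of 236 without and 329.6 with Dox, a ratio of 1.40 (1.15 to 1.70), close to those of NKX2-1 and NKX2-8. SFTA3, on the other side of NKX2-1, had 185 and 189, a ratio of 1.02 (0.806 to 1.29). Next to NKX2-2, PAX1 had 269.6 and 343, a ratio of 1.27 (1.06 to 1.53), and NKX2-4 148 and 181, a ratio of 1.23 (0.957 to 1.59). In all 17 nearest promoters were found within 500 kb, and 6 of them exceeded 20 for H3K27me3 in −Dox cells, where 11% of all promoters did. The 6 include NKX2-1 and NKX2-8, each counted as neighbour of the other, and NKX2-4, which is also an NKX gene. Those of the other genes, among them GOT1 and SLC25A28 beside NKX2-3, BNIP1 and STC2 beside NKX2-5 and RAB28 and BOD1L1 beside NKX3-2, all lay below 20. Marked neighbours were thus found at the chromosome 14 and chromosome 20 loci. The marked genes NKX2-3, NKX3-2 and NKX6-1 stood alone among their nearest promoters. For NKX6-1 this rests on CDS1, because no promoter with a position lay within 500 kb on the lower-coordinate side.

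For each gene the promoter with the most similar values over the 4 libraries was found by Euclidean distance on log2(signal + 5). For NKX2-1 this was PAX3 at a distance of 0.293, for NKX2-2 DLX5 at 0.140, for NKX2-3 DMRTA2 at 0.280, for NKX2-8 HOXC4 at 0.254, for NKX3-2 PRDM6 at 0.259 and for NKX6-1 RCN1 at 0.279. The strongly marked genes had few promoters within a distance of 0.5, from 2 for NKX3-2 to 15 for NKX6-1, and of the unmarked genes NKX6-2 had 12, NKX6-3 73 and NKX2-5 444. For NKX2-5 the most similar promoter was C17orf74, for NKX6-2 METTL7A and for NKX6-3 BEX1. With 4 libraries there are too few points to give more than a description.

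Other genes of the same families and tissues were described from 8 fixed lists. Among 22 other NK-like homeobox genes, such as TLX, LBX, BARX, DBX and MSX genes, 20 had H3K27me3 above 20 and 19 were bivalent in −Dox cells. Their median log2 H3K27me3 ratio was 0.04, the counting interval lay below 1 at 4 and above 1 at 2, and the ratios of the marked ones ran from 0.559 (0.345 to 0.877) at HHEX to 1.35 (1.07 to 1.70) at BARHL2. Their median log2 H3K4me3 ratio was −0.34, with the interval below 1 at 4 and above 1 at 0 of the 22. For H3K27me3 the interval lay below 1 at 6.79% and above 1 at 1.78% of all promoters, and at 47.4% and 2.96% of the 2226 promoters above 20 in −Dox cells. For H3K4me3 these shares were 2.97% and 1.76% of all promoters.

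Genes that share a tissue or a pathway with NKX factors are given next. Of 14 genes of ventral neural tube patterning 11 had H3K27me3 above 20, from FOXA2 with 114 and 26.8 (ratio 0.236, 0.136 to 0.373) to EN1 with 198 and 271 (1.37, 1.11 to 1.69). Of 15 pancreatic endocrine genes 13 did, from PAX4 with 30.8 and 6.71 (0.218, 0.0611 to 0.548) to MAFA with 20.2 and 28.0 (1.39, 0.679 to 2.76). Of 14 heart genes 7 did, from TBX5, a partner of NKX2-5, with 127 and 59.3 (0.468, 0.320 to 0.661) to HAND1 with 208 and 259 (1.24, 1.01 to 1.54). The median log2 H3K27me3 ratios of these lists were 0.19, −0.11 and −0.14. Of 16 axial skeleton and visceral mesoderm genes 10 were above 20, and the interval lay below 1 at 5 and above 1 at 2, with a median of −0.36. The lists of lung and thyroid, oligodendrocyte and gastric genes had 6 of 13, 3 of 10 and 2 of 9 genes above 20, and medians of −0.24, −0.44 and 0.50. In these 3 lists most genes were not above 20, so that all 3 medians rest mostly on promoters with few reads.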

How the data were processed

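The authors sequenced single-end reads of the 4 libraries on a MiSeq, mapped them to hg19 with Bowtie2, removed mitochondrial reads and deposited ngs.plot signal, that is scaled coverage summed over 3 kb on each side of 1 start per Ensembl gene. Whether the scaling used library size alone is not given in the sources used here. The versions of these tools are not given in the sources used here. All deposited values were whole multiples (within 0.001) of 1 step per file. Values were divided by the step and by the 3.34 to 3.41 points that 1 read covers, which gave approximate reads. Their exact Clopper-Pearson shares gave the 95% intervals of ratios, and this procedure was tested on simulated data. Ratios carry no pseudocount. With 1 library per group no test was made. Starts of 18244 transcripts (90.1%) were matched to GENCODE 44 on GRCh37. Python 3.11.15 and scipy 1.17.1 were used. The genes, lists and the class of at least 100 were chosen with earlier results of these data known. Beside the 9 genes, those named are the nearest promoter on each side within 500 kb, the most similar promoter, and in each list the lowest and highest H3K27me3 ratio among promoters above 20.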

Additional observations from a re-analysis of the deposited data

How the results depend on the processing

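The 5 summary results were recomputed under alternatives, which gave 24 values. Requiring a start within 1000 bp of the main annotated one kept all 9 genes, so the values under that setting could not change. Counts are taken as moved when they differ by more than 1.5 times, which holds for 5 values. The number of bivalent NKX genes before induction, 5, became 2 with a class threshold of 30 and 2 with classes taken from the +Dox values. It was 6 with a threshold of 10, which is within that factor. The count of H3K27me3 ratios below 0.5, which was 1, became 0 with a pseudocount of 5 and 0 when a mean of at least 10 was required, which leaves 6 genes, and the count below 0.66 likewise became 0 with that filter. The gene concerned is NKX6-3, with about 5 and 2 reads. The median log2 H3K27me3 ratio, 0.24, ran from 0.23 to 0.47 (the latter with the same total) and that of H3K4me3 from −0.73 to −0.47. Of 54 recomputed single ratios, 0 left their counting interval, but the scaling factors were small beside most of these intervals. The H3K27me3 ratios of NKX2-2 and NKX3-2 still crossed 1 with the same total, to 1.03 and 1.08. No paired analysis was possible because the labels put a single library in every group, and none could be left out. Depth limits the H3K27me3 ratios of NKX2-5, NKX6-2 and NKX6-3 and the H3K4me3 ratios of all but NKX3-2 and NKX6-1.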

Other observations

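Values of 4 further NKX genes are given here, and they were described after their values were seen. NKX2-4 had an H3K27me3 signal of 148 in −Dox and 181 in +Dox cells, and NKX2-6 had 188 and 204, with ratios of 1.23 (0.957 to 1.59) and 1.08 (0.862 to 1.36). Both were bivalent before induction and H3K27me3-only in +Dox cells. Their H3K4me3 ratios were 0.597 (0.296 to 1.11) and 0.632 (0.274 to 1.23), each below 1 with an interval that included 1. NKX1-2 was H3K4me3-only, with an H3K4me3 signal of 97.5 and 73.5, a ratio of 0.754 (0.533 to 1.05). NKX1-1, with a window GC content of 66.1%, had about 1 and 5 reads of H3K27me3 and 4 and 7 of H3K4me3.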
